A study of Homo sapiens with 8 samples.

Results

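MDA-MB231, a breast carcinoma cell line that the labels call basal-like, was compared with HMLE, a line of human mammary epithelial cells immortalized in culture, over all genes of a bead array. The study profiled 8 cultures on Illumina arrays, 1 array per culture, and 3 of them enter the comparison: MDA-MB231 with no transgene on its label, HMLE stably transfected with Gcnt2, a glycosyltransferase gene, and HMLE stably transfected with LacZ, the bacterial gene used as the control. The HMLE array labelled Foxq1 was left out, and untransfected SUM1315 and SUM159, also labelled basal-like breast cancer cells, are given beside the comparison where they help to place a value. SUM159 labelled LacZ and SUM159 labelled IRX5 are the remaining cultures. A gene was said to differ when its intensity in MDA-MB231 lay at least 2-fold outside both HMLE arrays on the same side. Of 11609 genes compared, out of 16864 with a named probe, 1352 differed (11.6%): 593 were higher in MDA-MB231 (5.11%) and 759 were lower (6.54%). The labels give no culture medium, passage or clone, so the cell line, its tumour origin and its culture cannot be told apart.

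Values are probe intensities on a linear scale after the authors' normalization. They include the background of the array, so their ratios understate the change of dim genes. A level of 141 was taken as the detection limit, and 10426 genes lay above it in MDA-MB231, against 10465 in HMLE Gcnt2 and 10456 in HMLE LacZ. Each fold is taken against the HMLE array nearer to MDA-MB231, and is written as "at least" where the dimmer side was below the limit and was set at it. Since each group is 1 array, no fold can be set against a spread between replicates and no test was run. The HMLE arrays carry different transgenes and are not replicates: 21 of 10936 genes (0.192%) were at least 2-fold higher in HMLE Gcnt2 than in HMLE LacZ, and 72 (0.658%) were lower. On the log2 scale the SD across genes was 0.85 for MDA-MB231 minus HMLE LacZ, 0.93 for MDA-MB231 minus HMLE Gcnt2 and 0.29 for HMLE Gcnt2 minus HMLE LacZ. Counts over gene lists cover members above the limit in at least 1 of the 3 arrays; a member measured on 1 side only could differ in that direction alone, so these counts are descriptions. By the same rule and against the same HMLE arrays, SUM1315 had 1096 of 11783 genes higher (9.3%) and 1028 lower (8.72%), and SUM159 had 565 of 11575 higher (4.88%) and 725 lower (6.26%).

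**Figure D1:**
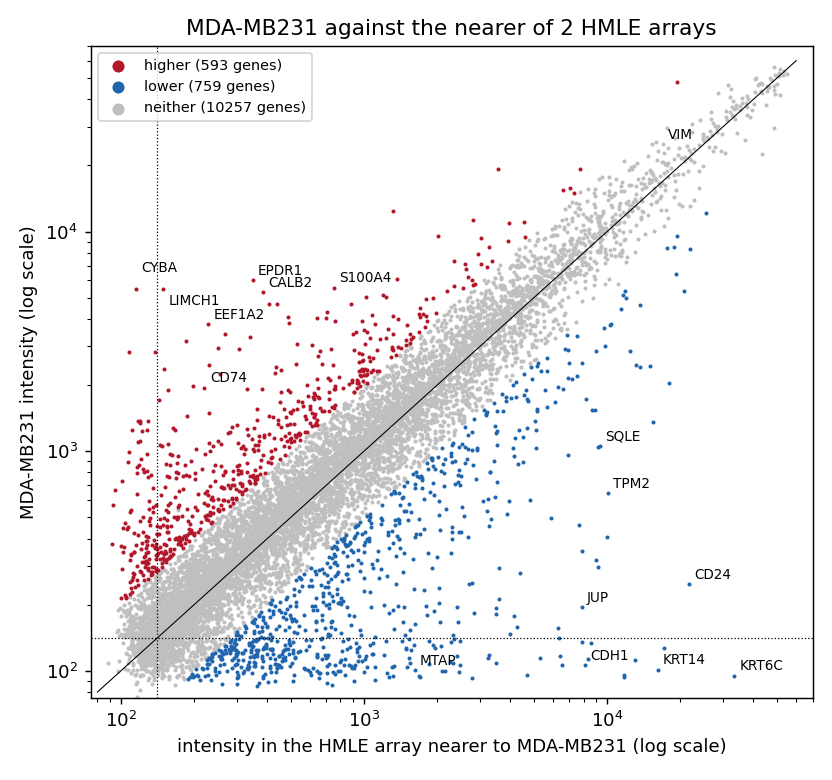
Each point is a gene, with its intensity in MDA-MB231 on the vertical axis and its intensity in the HMLE array nearer to MDA-MB231 on the horizontal axis, both on log scales. Dotted lines mark the detection limit of 141, the solid line marks equal intensity, and the 759 lower genes reach farther from that line than the 593 higher ones.

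Epithelial cells of the mammary gland are held in sheets by E-cadherin, tight junctions and desmosomes, and those of the outer, basal layer also carry keratins 5 and 14 and P-cadherin and rest on laminin through hemidesmosomes. In the epithelial-mesenchymal transition, factors of the ZEB and SNAI families bind E-box sequences and repress many of these genes, while vimentin and matrix genes are switched on. MDA-MB231 is widely used as an invasive line with a mesenchymal shape, it carries a deletion of the CDKN2A locus, and it lacks estrogen and progesterone receptors. HMLE cells carry telomerase and the SV40 early region, whose large T antigen binds the p53 and RB proteins.

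The labels were checked first. Markers of basal mammary epithelium (CDH1, CDH3, KRT5, KRT14, DSG3 and ITGB4) all read 2258 or more in both HMLE arrays, whereas EPCAM, an adhesion molecule of simple epithelia, read only 317 in HMLE Gcnt2 and 356 in HMLE LacZ, and 214 in MDA-MB231. VIM (vimentin) read 24964 in MDA-MB231, 7074 in HMLE Gcnt2 and 16941 in HMLE LacZ, so the HMLE cultures already held much of this mesenchymal filament transcript. In MDA-MB231 the estrogen and progesterone receptor genes ESR1 (109) and PGR (105) were below the limit, as they were in both HMLE arrays. The receptor gene ERBB2 read 1164 in MDA-MB231, 1398 in HMLE Gcnt2 and 1223 in HMLE LacZ. EGFR, the epidermal growth factor receptor, read 1291 in MDA-MB231, 1254 in HMLE Gcnt2 and 1155 in HMLE LacZ. CD44, the hyaluronan receptor, read 17092 in MDA-MB231, between 15922 in HMLE Gcnt2 and 20015 in HMLE LacZ. The basal keratins KRT5 (95.4) and KRT14 (101) were below the limit in MDA-MB231, which goes against its basal-like label at the level of these keratins. In HMLE Gcnt2 the GCNT2 probe for the transcript NM_145649 read 9104, and the same probe read 145 in MDA-MB231 and 106 in HMLE LacZ.

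E-cadherin, P-cadherin and most of the listed genes of epithelial membrane traffic were lower in MDA-MB231. Of 22 members of the adherens and tight junction list that were compared, 8 were lower, none was higher and 14 did not reach 2-fold, and of 20 genes of epithelial membrane traffic and surface proteases, 16 were lower and none was higher. The median difference was -0.52 on the log2 scale for the junction list and -2.84 for the traffic list, against 0.0 over all genes compared. CDH1, which encodes E-cadherin, read 106 in MDA-MB231, against 13304 in HMLE Gcnt2 and 8097 in HMLE LacZ. CDH3, which encodes P-cadherin, read 116.2 in MDA-MB231, against 10906 in HMLE Gcnt2 and 6423 in HMLE LacZ. Both cadherin genes were thus below the limit in MDA-MB231 and among the brighter genes of HMLE, at least 57.4-fold lower for CDH1 and at least 45.5-fold for CDH3. CLDN7, a claudin of the tight junction, read 194 in MDA-MB231, 5120.0 in HMLE Gcnt2 and 3487 in HMLE LacZ, 18.0-fold lower. CRB3, a Crumbs protein that marks the apical membrane, was below the limit in MDA-MB231 at 105 and read 1469 in HMLE Gcnt2 and 883 in HMLE LacZ, though its least changed probe differed by only -0.45 (log2).

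CD24, a mucin-like surface protein, was 87.8-fold lower: it read 247 in MDA-MB231, 25443 in HMLE Gcnt2 and 21727 in HMLE LacZ. MAL2, a protein of apical transcytosis, was at least 37.6-fold lower, with 114 in MDA-MB231, 6154 in HMLE Gcnt2 and 5298 in HMLE LacZ. RAB25, a small GTPase of apical recycling, was at least 16.7-fold lower, with 139 in MDA-MB231, 2899 in HMLE Gcnt2 and 2356 in HMLE LacZ. TMEM30B, a subunit of lipid flippases, read 127 in MDA-MB231, 1713 in HMLE Gcnt2 and 1486 in HMLE LacZ. Of these members CD24 alone was above the limit in MDA-MB231, and it lay just above it. With CD44 high at its brightest probe and CD24 near the limit, these surface-marker transcripts of MDA-MB231 differed 2-fold from those of HMLE in CD24, not in CD44. A dimmer CD44 probe fell just short of 2-fold at -0.97 (log2), with 378 in MDA-MB231, 820 in HMLE Gcnt2 and 743 in HMLE LacZ.

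Of 17 transcription factors of epithelial cells compared, 12 were lower in MDA-MB231 and none was higher, with a median of -1.64 (log2). The splicing factor gene ESRP2 of the same list was below the limit in all 3 arrays and was not compared. TFAP2A, an AP-2 factor of skin and breast epithelium, read 497 in MDA-MB231, 8337 in HMLE Gcnt2 and 5864 in HMLE LacZ, 11.8-fold lower, although its least changed probe differed by only -0.16 (log2). HES2, a bHLH factor, read 114 in MDA-MB231, 2602 in HMLE Gcnt2 and 1526 in HMLE LacZ. BNC1, the basonuclin of basal keratinocytes, read 94.96 in MDA-MB231, 1920.0 in HMLE Gcnt2 and 1317 in HMLE LacZ. HES2 and BNC1 were below the limit in MDA-MB231, at least 10.8-fold and 9.34-fold lower. EHF, an ETS factor of epithelia, was likewise below the limit at 114 in MDA-MB231, against 1200.1 in HMLE Gcnt2 and 832 in HMLE LacZ. FOXA1, a pioneer factor of luminal cells, read 130.3 in MDA-MB231, 791 in HMLE Gcnt2 and 591 in HMLE LacZ. When MDA-MB231 also had to lie 2-fold outside the array labelled Foxq1, the lower members of this list numbered 5 and those of the junction list 5.

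The sequence before the start of an epithelial gene is where the E-box repressors named above are known to bind. Promoters of 300 bases, from 250 before to 50 after the gene start, were taken from RefSeq on GRCh38.p14 for RAB25, CRB3, KRT5 and CLDN7, which were all lower in MDA-MB231 and which the table of promoters holds. Lines run 5′ to 3′ on the strand of the gene, and capitals mark the E-box letters CACCTG or CAGGTG, which are each other's reverse complement, so both strands are covered.
RAB25 (chr1:156060910-156061209, plus strand): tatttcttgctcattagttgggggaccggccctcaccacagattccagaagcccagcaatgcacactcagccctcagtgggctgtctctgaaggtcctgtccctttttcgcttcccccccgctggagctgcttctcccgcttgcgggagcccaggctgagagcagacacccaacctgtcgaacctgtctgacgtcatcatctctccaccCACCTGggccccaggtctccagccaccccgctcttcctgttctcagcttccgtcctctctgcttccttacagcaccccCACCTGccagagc
CRB3 (chr19:6464021-6464320, plus strand): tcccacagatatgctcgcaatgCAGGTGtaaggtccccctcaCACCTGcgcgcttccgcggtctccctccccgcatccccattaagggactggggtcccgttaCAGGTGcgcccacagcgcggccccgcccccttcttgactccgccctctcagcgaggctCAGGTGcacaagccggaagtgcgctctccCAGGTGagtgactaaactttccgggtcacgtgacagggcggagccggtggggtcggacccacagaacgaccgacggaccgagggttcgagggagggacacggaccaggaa
KRT5 (chr12:52520345-52520644, minus strand): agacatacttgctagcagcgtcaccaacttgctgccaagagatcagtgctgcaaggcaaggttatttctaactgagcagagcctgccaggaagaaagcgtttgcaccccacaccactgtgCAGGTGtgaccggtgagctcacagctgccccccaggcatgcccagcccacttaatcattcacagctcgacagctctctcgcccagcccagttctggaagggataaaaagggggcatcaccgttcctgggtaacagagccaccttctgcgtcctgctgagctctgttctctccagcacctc
CLDN7 (chr17:7263164-7263463, minus strand): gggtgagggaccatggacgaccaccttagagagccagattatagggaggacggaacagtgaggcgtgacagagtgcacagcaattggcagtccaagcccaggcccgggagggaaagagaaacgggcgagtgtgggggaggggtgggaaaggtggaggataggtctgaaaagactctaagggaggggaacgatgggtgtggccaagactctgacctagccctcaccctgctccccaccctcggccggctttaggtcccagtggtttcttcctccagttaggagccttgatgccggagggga
CRB3 held 5 such E-boxes, RAB25 held 2, KRT5 held 1 and CLDN7 held 0. Among all 27305 promoters of the table, 20.6% held at least 1, and among those of the genes compared, 18.2%. Of promoters not printed, SERPINB5 and KLK5, both lower in MDA-MB231, held 1 and 0, and CYBA, which was higher, held 1. MTAP and CDKN2A, also lower, and CD74, which was higher, each held 0. The 4 printed promoters are examples and cannot stand for the lower genes. The AP-1 letters TGAGTCA or TGACTCA, reverse complements of each other that overlap no E-box, occurred in none of the 4 promoters and in 4.92% of all promoters. These matches are descriptions of the letters, and no binding was measured. Over whole sets, 29% of the promoters of lower genes and 16% of those of higher genes held at least 1 E-box. The difference was not tested. The table held a promoter for only 75.9% of the lower and 79.9% of the higher genes, against 82.2% of all genes compared. Genes without an entry could change these shares.

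Among the gene lists, the basal keratins and the squamous barrier genes had the lowest medians. The members of these lists were chosen with earlier results of these data known. Most were below the limit in MDA-MB231 and so could differ only as lower genes. Of 7 basal keratins compared, 6 were lower and none was higher, with a median of -4.75 (log2), and of 33 squamous barrier genes, 29 were lower and none was higher, with a median of -3.12. KRT6C, a keratin of stressed epidermis, read 95.1 in MDA-MB231, 44869 in HMLE Gcnt2 and 33396 in HMLE LacZ, at least 237-fold lower, the highest fold of the comparison. Its probe may also bind transcripts of its near-identical relatives KRT6A and KRT6B, so the assignment to KRT6C is uncertain. KRT14 read 101 in MDA-MB231, 21430.0 in HMLE Gcnt2 and 16137 in HMLE LacZ. KRT5, its partner in basal filaments, read 95.4 in MDA-MB231, 16941 in HMLE Gcnt2 and 11762 in HMLE LacZ. Both were below the limit in MDA-MB231 and among the brightest genes of HMLE, at least 114-fold (KRT14) and 83.4-fold (KRT5) lower. KRT16, a partner of the keratin 6 proteins, read 159 in MDA-MB231, 6278 in HMLE Gcnt2 and 4257 in HMLE LacZ.

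The simple keratins behaved less uniformly, with 2 of 5 lower and 1 higher. KRT7 was 11.4-fold lower, with 1359 in MDA-MB231, 18836 in HMLE Gcnt2 and 15516 in HMLE LacZ. KRT8 read 1756 in MDA-MB231, 4290.3 in HMLE Gcnt2 and 4226 in HMLE LacZ, and its partner KRT18 read 443 in MDA-MB231, 594 in HMLE Gcnt2 and 637 in HMLE LacZ, which did not reach 2-fold. KRT19, a keratin of ducts, was 2.24-fold higher, with 342 in MDA-MB231, 153 in HMLE Gcnt2 and 131 in HMLE LacZ. MDA-MB231 therefore kept measured levels of simple keratin transcripts while its basal keratin transcripts were near or below the limit.

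Among the squamous barrier genes SERPINB5 (maspin, a serpin of myoepithelial cells) read 126 in MDA-MB231, 24077 in HMLE Gcnt2 and 17134 in HMLE LacZ, at least 121-fold lower. KLK5, a kallikrein protease that drives shedding of the skin, read 93.9 in MDA-MB231, 17756 in HMLE Gcnt2 and 11713 in HMLE LacZ, at least 83.1-fold lower. PI3 (elafin, an elastase inhibitor) read 134 in MDA-MB231, 10528 in HMLE Gcnt2 and 8612 in HMLE LacZ. S100A9, a subunit of calprotectin, read 106 in MDA-MB231, 6528 in HMLE Gcnt2 and 6797 in HMLE LacZ. All of these were below the limit in MDA-MB231 and far above it in both HMLE arrays. FGFBP1, a carrier of fibroblast growth factors, read 112 in MDA-MB231, 13069.7 in HMLE Gcnt2 and 15313 in HMLE LacZ, and SCNN1A, a subunit of the epithelial sodium channel, was at least 55.9-fold lower. For LAD1 (ladinin, of the basement membrane) and KLK7 (another skin kallikrein), at least 59.3-fold and 45.1-fold lower, a second detected probe differed by only -0.61 and -0.45 (log2). When the array labelled Foxq1 was also required, 19 of the 33 barrier genes were lower.

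Of 14 desmosomal genes 9 were lower and 1 was higher. JUP (plakoglobin, of desmosomes and adherens junctions) was 40.3-fold lower, with 195 in MDA-MB231, 14483 in HMLE Gcnt2 and 7852 in HMLE LacZ. DSG3, a desmosomal cadherin, read 109.8 in MDA-MB231, 4367 in HMLE Gcnt2 and 2258 in HMLE LacZ. PKP1, a plakophilin, read 129.5 in MDA-MB231, 3814 in HMLE Gcnt2 and 2081 in HMLE LacZ. DSG3 and PKP1 were below the limit in MDA-MB231, at least 16.01-fold and 14.8-fold lower, whereas DSC2, another desmosomal cadherin, was measured in all arrays at 249 in MDA-MB231, 4559 in HMLE Gcnt2 and 2708 in HMLE LacZ. The exception was EVPL (envoplakin, a linker of the cornified envelope), which read 682 in MDA-MB231, 266 in HMLE Gcnt2 and 226 in HMLE LacZ. Of 6 hemidesmosome and laminin-332 genes 2 were lower and 4 did not reach 2-fold. LAMB3 (the laminin beta 3 chain) was 5.61-fold lower, with 2425 in MDA-MB231, 28945 in HMLE Gcnt2 and 13595 in HMLE LacZ. Another detected probe of LAMB3 did not differ (0.0 on the log2 scale). It lay near or below the limit, at 126 in MDA-MB231, 143 in HMLE Gcnt2 and 113 in HMLE LacZ. ITGB4, the integrin beta 4 subunit of hemidesmosomes, was 15.4-fold lower by its brightest probe, with 183 in MDA-MB231, 4646 in HMLE Gcnt2 and 2824 in HMLE LacZ. A further ITGB4 probe read 133 in MDA-MB231, 1823 in HMLE Gcnt2 and 1040 in HMLE LacZ. The detected probes were inconsistent, since another differed by 0.03 (log2) the other way. That probe lay near or below the limit, at 143 in MDA-MB231, 140 in HMLE Gcnt2 and 108 in HMLE LacZ. With the array labelled Foxq1 required as well, 5 desmosomal genes were lower.

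**Figure D2:**
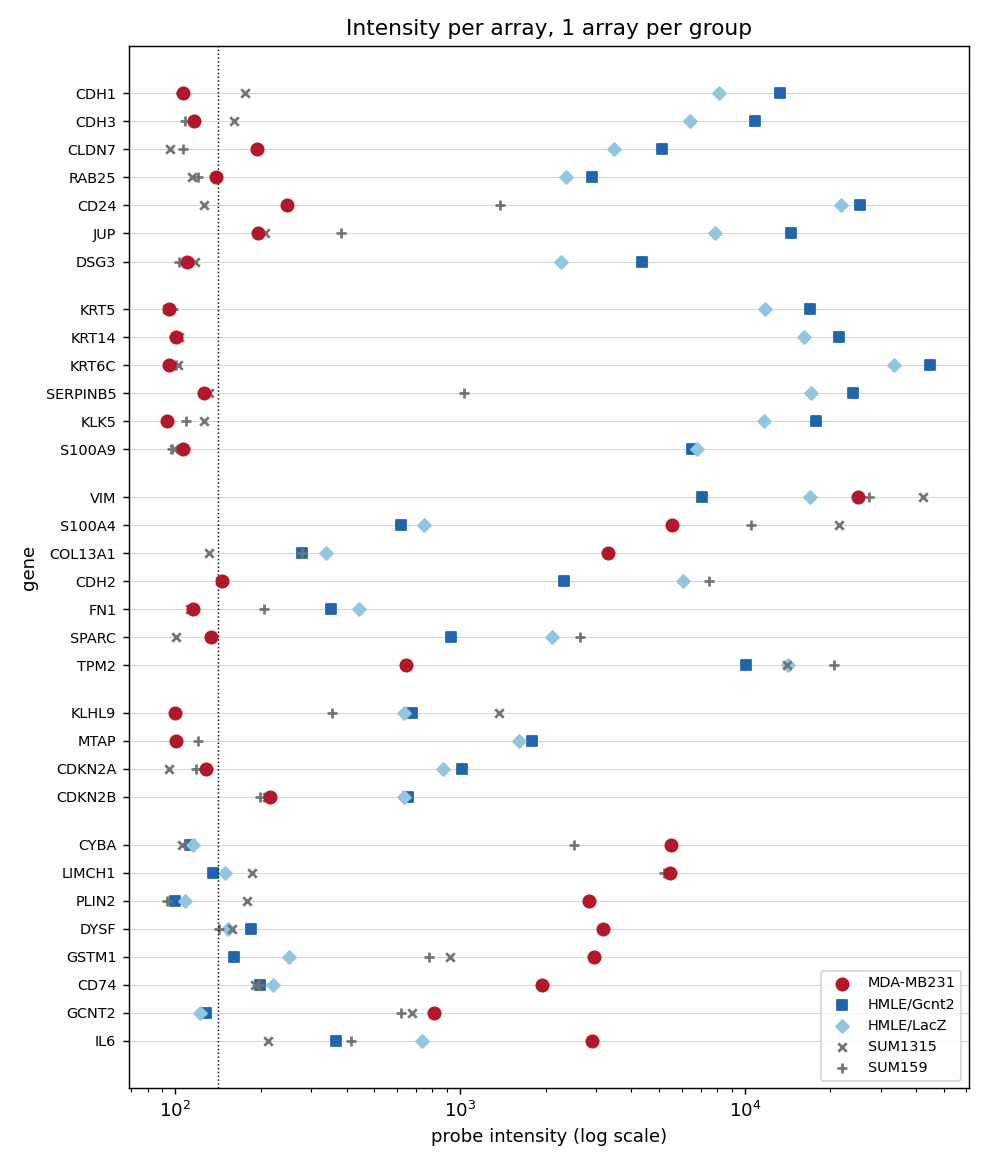
Intensity per array, on a log scale, of genes named in the text, grouped from top to bottom as junctions, keratins and barrier genes, mesenchymal genes, neighbours of CDKN2A, and genes higher in MDA-MB231. Each symbol is 1 array and the dotted line is the detection limit of 141: MDA-MB231 lies at or near the limit for the keratin and barrier genes, where both HMLE arrays lie between 6528 and 44869.

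The mesenchymal genes did not move as a block. Of 17 cadherins, filaments and surface proteins of mesenchymal cells, 4 were higher and 4 lower, with a median of 0.0 (log2). S100A4, a calcium-binding protein of motile cells, was 7.41-fold higher, with 5561 in MDA-MB231, 619.9 in HMLE Gcnt2 and 750.2 in HMLE LacZ. ENG (endoglin, a TGF-beta co-receptor) was 5.79-fold higher, with 4028 in MDA-MB231, 696 in HMLE Gcnt2 and 584 in HMLE LacZ. PDGFRB, a platelet-derived growth factor receptor, read 487 in MDA-MB231, 121 in HMLE Gcnt2 and 155 in HMLE LacZ. In the other direction CDH2 (N-cadherin) was 15.9-fold lower, with 146 in MDA-MB231, 2322 in HMLE Gcnt2 and 6067 in HMLE LacZ. THY1, a surface glycoprotein of fibroblasts, read 119 in MDA-MB231, 642 in HMLE Gcnt2 and 1612 in HMLE LacZ. In MDA-MB231 the N-cadherin transcript lay just above the limit and the E-cadherin transcript below it, and both were well above it in HMLE. FSCN1 (fascin, an actin-bundling protein of filopodia) read 5366 in MDA-MB231 and 20649 in each HMLE array. CAV2, a caveolin, was 3.42-fold lower, with 2208 in MDA-MB231, 8154 in HMLE Gcnt2 and 7550.1 in HMLE LacZ, though another probe differed by only -0.21 (log2).

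Of 10 factors that induce the epithelial-mesenchymal transition, 2 were higher and 2 were lower, with a median of -0.13 (log2). ZEB1, a zinc finger repressor of E-cadherin, read 286 in MDA-MB231, 113 in HMLE Gcnt2 and 139 in HMLE LacZ, at least 2.03-fold higher. LEF1, a transcriptional partner of beta-catenin, was at least 3.54-fold higher, with 499 in MDA-MB231, 132 in HMLE Gcnt2 and 125 in HMLE LacZ. Both were below the limit in HMLE, so only lower bounds of their folds can be given. SNAI2 (Slug) was 3.13-fold lower, with 778 in MDA-MB231, 2436 in HMLE Gcnt2 and 3932 in HMLE LacZ. FOXQ1, a forkhead factor, was 7.02-fold lower, with 196 in MDA-MB231, 1378 in HMLE Gcnt2 and 1641 in HMLE LacZ. ZEB1 and SNAI2, which are both known to repress E-cadherin, thus lay on opposite sides of HMLE.

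Collagen and matrix genes lay on both sides: of 33 compared, 7 were higher and 9 were lower, with a median of -0.15 (log2). COL13A1, a transmembrane collagen, was 9.77-fold higher, with 3301 in MDA-MB231, 279.7 in HMLE Gcnt2 and 338 in HMLE LacZ. COL5A1, a fibrillar collagen chain, read 2410.1 in MDA-MB231, 183 in HMLE Gcnt2 and 436 in HMLE LacZ. COL8A1, a short-chain collagen, read 5035 in MDA-MB231, 351 in HMLE Gcnt2 and 1021 in HMLE LacZ. THBS2 (thrombospondin 2) was at least 4.51-fold higher. Lower were FBN2 (fibrillin 2), at least 7.71-fold with 119.8 in MDA-MB231, 1088 in HMLE Gcnt2 and 2346 in HMLE LacZ, and SPARC (osteonectin), at least 6.58-fold with 134 in MDA-MB231, 928 in HMLE Gcnt2 and 2099.9 in HMLE LacZ. FBLN1 (fibulin 1) was 5.46-fold lower and COL16A1 3.92-fold lower. FN1 (fibronectin) was at least 2.50-fold lower, with 115.6 in MDA-MB231, 353 in HMLE Gcnt2 and 443 in HMLE LacZ.

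Contractile genes and known targets of YAP and SRF were also mixed, with 3 of 20 higher and 6 lower and a median of 0.04 (log2). TPM2, a tropomyosin of stress fibres, was 15.6-fold lower, with 644 in MDA-MB231, 10076 in HMLE Gcnt2 and 14186 in HMLE LacZ, although another of its detected probes differed by only -0.21 (log2). TAGLN (transgelin) was 5.24-fold lower, with 591 in MDA-MB231, 3099 in HMLE Gcnt2 and 7168 in HMLE LacZ. Another TAGLN probe fell just short of 2-fold at -0.94 (log2). TPM1, a second tropomyosin gene, was 4.36-fold lower, with 2852 in MDA-MB231, 13402 in HMLE Gcnt2 and 12444 in HMLE LacZ. These are proteins of contractile actin filaments, and CNN2 (calponin 2) was lower as well, 3.43-fold. ANKRD1 and CCN1, which are standard targets of YAP, were higher by 2.58-fold and 2.04-fold: ANKRD1 read 1861 in MDA-MB231, 222 in HMLE Gcnt2 and 720.2 in HMLE LacZ, and CCN1 read 15009.6 in MDA-MB231, 7339 in HMLE Gcnt2 and 6896 in HMLE LacZ.

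The genes highest in MDA-MB231 belonged to several pathways. CYBA, the p22phox subunit of NADPH oxidases, was at least 39.0-fold higher, with 5500.1 in MDA-MB231, 113 in HMLE Gcnt2 and 115 in HMLE LacZ. LIMCH1, an activator of non-muscle myosin, was 36.8-fold higher, with 5482 in MDA-MB231, 136 in HMLE Gcnt2 and 149 in HMLE LacZ. CD163L1, a scavenger receptor, read 2832 in MDA-MB231, 138 in HMLE Gcnt2 and 136 in HMLE LacZ. PLIN2 (perilipin 2, the coat of lipid droplets) read 2831 in MDA-MB231, 99.5 in HMLE Gcnt2 and 108 in HMLE LacZ, and like CD163L1 it was at least 20.1-fold higher. These genes were at or near the limit in HMLE and well above it in MDA-MB231. EPDR1, an ependymin-related secreted protein, was 17.3-fold higher, with 6017 in MDA-MB231, 159 in HMLE Gcnt2 and 348 in HMLE LacZ. DYSF (dysferlin, of membrane repair) was 17.2-fold higher, with 3178 in MDA-MB231, 184 in HMLE Gcnt2 and 153 in HMLE LacZ. EEF1A2, the elongation factor form of muscle and neurons, was 16.6-fold higher, with 3778 in MDA-MB231, 155 in HMLE Gcnt2 and 228 in HMLE LacZ.

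ACSL5, an acyl-CoA synthetase, was higher by 15.7-fold at its brightest probe, whereas its least changed probe differed by 0.83 (log2). The same holds for CALB2 (calretinin, a calcium buffer), 13.8-fold higher with 5298 in MDA-MB231, 383 in HMLE Gcnt2 and 312 in HMLE LacZ, whose other detected probe differed by 0.08 (log2). PLAC8 was 12.8-fold higher, TBL1X, a subunit of a nuclear corepressor complex, 11.9-fold and GNG11, a G protein gamma subunit, 11.5-fold. GPX3, the plasma glutathione peroxidase, was 12.1-fold higher, with 1901 in MDA-MB231, 139 in HMLE Gcnt2 and 157 in HMLE LacZ. IGFBP4, a binding protein of insulin-like growth factors, was 9.44-fold higher, with 12444 in MDA-MB231, 798 in HMLE Gcnt2 and 1318 in HMLE LacZ.

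Detoxifying enzymes contributed further members: of 18 xenobiotic and NRF2-type genes compared, 5 were higher and 2 were lower, with a median of 0.33 (log2). GSTM1, a glutathione S-transferase, read 2952 in MDA-MB231, 161 in HMLE Gcnt2 and 251 in HMLE LacZ. Its neighbours GSTM2 and GSTM3 were higher by 10.7-fold and by at least 4.73-fold. The GSTM genes are near-identical in sequence and GSTM1 is absent from many human genomes, so signal of GSTM1 and GSTM2 cannot be assigned with certainty to either gene. TXNRD1 (thioredoxin reductase), a standard NRF2 target, read 9342 in MDA-MB231, 3043 in HMLE Gcnt2 and 2159.8 in HMLE LacZ, 3.07-fold higher. CYP1B1, an oxidase induced by the aryl hydrocarbon receptor, was 3.32-fold higher. GSTP1, another transferase, was 2.10-fold lower, with 12163 in MDA-MB231, 31800.0 in HMLE Gcnt2 and 25571 in HMLE LacZ, and AKR1C2, an aldo-keto reductase, was at least 2.53-fold lower.

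**Figure D3:**
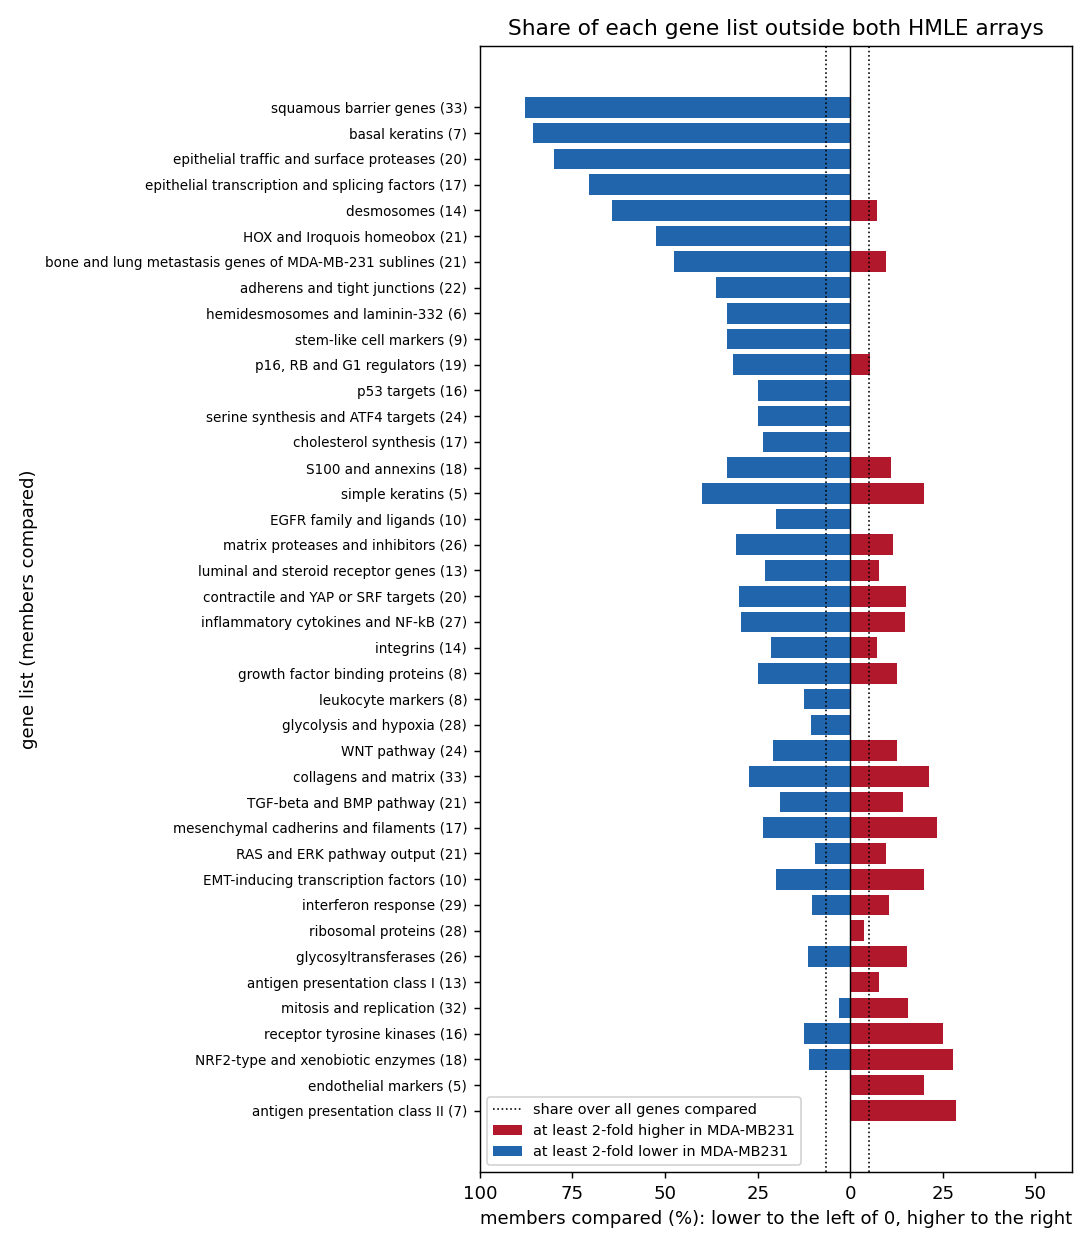
Bars give the percent of compared members, for each gene list with at least 5 of them, that lay at least 2-fold outside both HMLE arrays, higher in MDA-MB231 to the right of 0 and lower to the left, with the number of members compared in parentheses. Dotted lines mark the shares over all genes, 5.11% higher and 6.54% lower: the squamous barrier, basal keratin and epithelial traffic lists reach farthest to the left.

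Receptor tyrosine kinases and the signalling below them, which drive growth in many carcinomas, were examined next. Of 21 output genes of RAS and ERK signalling, 2 were higher and 2 were lower, with a median of 0.0 (log2). SPRY1 (sprouty 1, a feedback inhibitor) was 2.60-fold higher, with 679.8 in MDA-MB231, 262 in HMLE Gcnt2 and 238 in HMLE LacZ. ETV5, an ETS factor induced by ERK, was 2.07-fold higher, with 1941 in MDA-MB231, 661 in HMLE Gcnt2 and 939 in HMLE LacZ. Another ETV5 probe differed by only 0.59 (log2). EGR1, an immediate early factor, was 8.66-fold lower, with 168 in MDA-MB231, 1462 in HMLE Gcnt2 and 1452 in HMLE LacZ, and EMP1, a membrane protein, was 6.12-fold lower. The list thus showed no common direction in these arrays. Of 10 genes of the EGFR family and its ligands 2 were lower and none was higher: TGFA, a ligand of EGFR, read 239 in MDA-MB231, 3319 in HMLE Gcnt2 and 2034 in HMLE LacZ, and ERBB3, a partner receptor, read 115.8 in MDA-MB231, 810.2 in HMLE Gcnt2 and 639 in HMLE LacZ, with another detected ERBB3 probe differing by only -0.07 (log2).

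Among 16 other receptor tyrosine kinases 4 were higher and 2 lower. AXL, a GAS6 receptor of invasive cells, was 2.61-fold higher, with 8493 in MDA-MB231, 2607 in HMLE Gcnt2 and 3255 in HMLE LacZ. MERTK, of the same receptor family, was at least 3.39-fold higher, with 479 in MDA-MB231, 107 in HMLE Gcnt2 and 120.3 in HMLE LacZ. DDR1, a collagen receptor of epithelia, was 3.98-fold lower, with 513 in MDA-MB231, 4249 in HMLE Gcnt2 and 2040.0 in HMLE LacZ, and FGFR3 was 2.68-fold lower although another of its probes did not differ (0.0 on the log2 scale). A dimmer DDR1 probe differed by only -0.59 (log2). Of 14 integrins outside hemidesmosomes, ITGB2, a subunit of leukocyte integrins, was 3.0-fold higher, while ITGA5, of the fibronectin receptor, was 2.85-fold lower, ITGB6, an epithelial subunit that activates TGF-beta, at least 2.73-fold and ITGA2, of a collagen receptor, 2.18-fold.

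Secreted signals of inflammation differed in both directions, with 4 of 27 higher and 8 lower and a median of -0.24 (log2). IL6 was 3.96-fold higher, with 2906 in MDA-MB231, 366 in HMLE Gcnt2 and 735 in HMLE LacZ. IL11, a cytokine of the same family, was 3.82-fold higher, with 827 in MDA-MB231, 164 in HMLE Gcnt2 and 217 in HMLE LacZ. TNFAIP2, an NF-kB target, was 4.83-fold higher, and the monocyte chemokine CCL2 was 2.54-fold higher. Against these, IL1A was 4.97-fold lower, with 1030.3 in MDA-MB231, 8256 in HMLE Gcnt2 and 5120.0 in HMLE LacZ. PTGS2 (cyclooxygenase 2) was 5.12-fold lower, with 282 in MDA-MB231, 1441 in HMLE Gcnt2 and 1963 in HMLE LacZ. TNFAIP3, which encodes the NF-kB inhibitor A20, was 4.02-fold lower, and IL1RN, the interleukin 1 receptor antagonist, 6.71-fold lower, with another IL1RN probe at only -0.08 (log2).

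Of 26 matrix proteases and inhibitors 3 were higher and 8 were lower. MMP1 (interstitial collagenase) was 3.83-fold higher, with 1394 in MDA-MB231, 309 in HMLE Gcnt2 and 363 in HMLE LacZ. TIMP2, an inhibitor of metalloproteinases, was 4.45-fold higher, with 6107 in MDA-MB231, 774 in HMLE Gcnt2 and 1373 in HMLE LacZ, with another probe at 0.73 (log2). CST6 (cystatin M, a protease inhibitor of skin) was at least 22.9-fold lower, with 114 in MDA-MB231, 5009 in HMLE Gcnt2 and 3235 in HMLE LacZ. CTSV (cathepsin V), a protease that cystatin M inhibits, was 16.6-fold lower, with 461 in MDA-MB231, 10765 in HMLE Gcnt2 and 7646 in HMLE LacZ. Both the protease and its inhibitor were thus lower in MDA-MB231.

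A further list held genes known for bone or lung metastasis of MDA-MB231 sublines selected in mice. The label of the MDA-MB231 culture measured here does not say whether it is the parental line. In it, 2 of the 21 compared members of this list were higher than in HMLE and 10 were lower, with a median of -0.54 (log2). The higher ones were MMP1 and IL11, given above. ANGPTL4, a regulator of lipoprotein lipase and of vessel permeability, was 10.03-fold lower, with 203 in MDA-MB231, 2033 in HMLE Gcnt2 and 3219.9 in HMLE LacZ, though another of its probes differed by only -0.27 (log2). FST (follistatin, which binds activin) was 8.82-fold lower, with 2038 in MDA-MB231, 24542 in HMLE Gcnt2 and 17976 in HMLE LacZ. The list was defined against the parental MDA-MB231 line in other work, not against HMLE.

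In the cell cycle, 6 of 19 genes of the p16, RB and G1 control list were lower and 1 was higher. MTAP, a methionine salvage enzyme, CDKN2A and CDKN2B, which encode the CDK inhibitors p16 and p15, are neighbours on chromosome 9 and were all lower. MTAP read 101 in MDA-MB231, 1789 in HMLE Gcnt2 and 1616 in HMLE LacZ, at least 11.5-fold lower. CDKN2A read 128 in MDA-MB231, 1015 in HMLE Gcnt2 and 874 in HMLE LacZ, at least 6.20-fold lower. A further CDKN2A probe read 117 in MDA-MB231, 1344 in HMLE Gcnt2 and 1073 in HMLE LacZ. The detected probes were inconsistent, since a dim one differed by 0.06 (log2) the other way. That probe lay near the limit, at 149 in MDA-MB231, 143 in HMLE Gcnt2 and 132 in HMLE LacZ. CDKN2B was 2.95-fold lower, with 215 in MDA-MB231, 659 in HMLE Gcnt2 and 635 in HMLE LacZ. KLHL9, a ubiquitin ligase adaptor within the type I interferon gene cluster, was below the limit at 99.5 in MDA-MB231, against 677 in HMLE Gcnt2 and 638 in HMLE LacZ. The probe of IFNA8, an interferon gene between KLHL9 and MTAP, was not lower, with 456 in MDA-MB231, 368 in HMLE Gcnt2 and 366 in HMLE LacZ. It read between 366 and 491 in all 8 arrays, and whether this signal comes from IFNA8 was not tested. On the other side, beyond CDKN2B, TUSC1, CAAP1, PLAA and IFT74 did not reach 2-fold. DNA copy number was not measured here.

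CCND2 (cyclin D2) was 4.96-fold lower, with 871 in MDA-MB231, 6388 in HMLE Gcnt2 and 4318 in HMLE LacZ. CDKN1A, the p21 inhibitor that p53 induces, was 4.75-fold lower, with 1724 in MDA-MB231, 13252 in HMLE Gcnt2 and 8191 in HMLE LacZ, and its other probe differed by only -0.46 (log2). Of 16 known p53 targets, 4 were lower and none was higher, among them TP53I3, 5.74-fold lower with another probe at -0.39 (log2), and PHLDA3, 3.56-fold lower. Of 32 genes of mitosis and replication, 5 were higher and 1 was lower, with a median of 0.23 (log2). CENPF, a kinetochore protein, was 4.74-fold higher, with 2498 in MDA-MB231, 494 in HMLE Gcnt2 and 527 in HMLE LacZ. AURKA (Aurora kinase A) was 2.44-fold higher, with 11092 in MDA-MB231, 3697 in HMLE Gcnt2 and 4545 in HMLE LacZ. RRM2, a subunit of ribonucleotide reductase, went the other way at 2.22-fold lower.

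**Figure D4:**
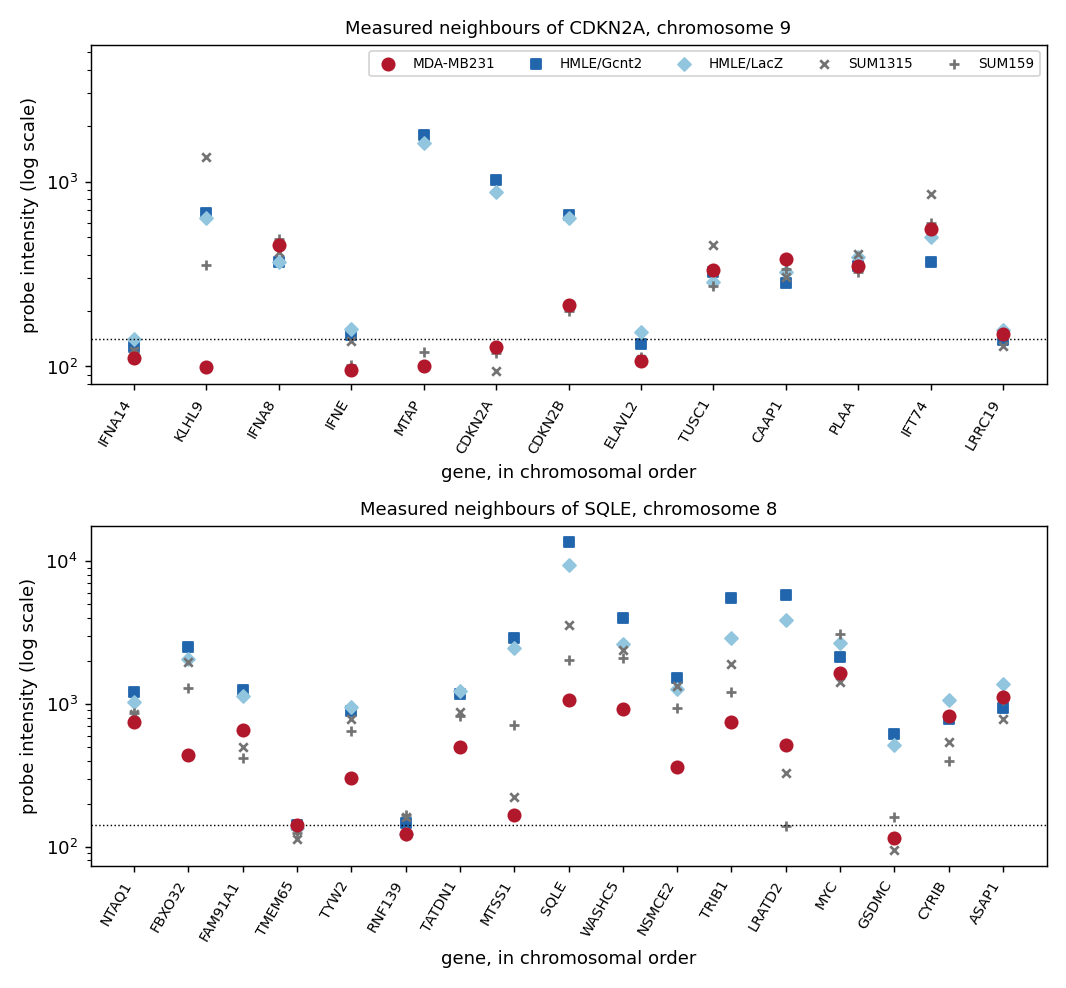
Intensity per array, on a log scale, of measured genes in chromosomal order around CDKN2A on chromosome 9 (upper panel) and around SQLE on chromosome 8 (lower panel). MDA-MB231 is lower for KLHL9, MTAP, CDKN2A and CDKN2B and for the 7 genes from TATDN1 to LRATD2, the dotted line is the detection limit of 141, and genes are evenly spaced and not drawn at their distances.

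Some genes that differed lay side by side. Among measured genes in chromosomal order, runs of at least 3 neighbours in the same direction numbered 9 for higher genes (29 of 593 genes). They numbered 15 for lower genes (56 of 759 genes). How many runs shares of 5.11% higher and 6.54% lower would give by themselves was not worked out, so these counts are descriptions. Several runs are gene families, among them SPRR, S100, CXCL, HOXC and GSTM genes. The longest lower runs held 7 genes each: the kallikreins KLK5 to KLK11 on chromosome 19, which are a family of tandem copies, and TATDN1, MTSS1, SQLE, WASHC5, NSMCE2, TRIB1 and LRATD2 on chromosome 8, which are not a family. In the second run MTSS1, a membrane-curving actin regulator, was 14.7-fold lower, with 167 in MDA-MB231, 2879 in HMLE Gcnt2 and 2447 in HMLE LacZ. The next gene after LRATD2, MYC, read 1657 in MDA-MB231, 2143 in HMLE Gcnt2 and 2689.7 in HMLE LacZ and did not reach 2-fold. The longest higher run held 5 genes of chromosome 5, FASTKD3, CCT5, CMBL, MARCHF6 and ROPN1L, of which CMBL, a hydrolase, was highest at 3.89-fold. By chromosome, the share of compared genes that were higher ran between 1.88% on chromosome 14 and 10.2% on chromosome 9, with 10.1% on chromosome 20 and 9.22% on chromosome 11, against 5.11% over all. The genes of these runs and of TATDN1 to LRATD2 were singled out after their values were seen.

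Of 18 S100 and annexin genes 2 were higher and 6 were lower. S100A2, an S100 protein of basal epithelium, was 30.8-fold lower, with 297 in MDA-MB231, 12948 in HMLE Gcnt2 and 9157 in HMLE LacZ, and ANXA6 (annexin A6, a membrane-binding protein) was 5.19-fold higher, with 886 in MDA-MB231, 135 in HMLE Gcnt2 and 171 in HMLE LacZ. Of 13 luminal and steroid receptor genes 1 was higher and 3 were lower. BCL2, an inhibitor of apoptosis that estrogen induces in luminal cells, was at least 3.76-fold higher, with 531 in MDA-MB231, 114 in HMLE Gcnt2 and 136 in HMLE LacZ. Of 9 stem-like cell markers 3 were lower and none was higher: besides CD24 and THY1 it was ALDH1A3, a retinaldehyde dehydrogenase, 24.5-fold lower with 407 in MDA-MB231, 15009.6 in HMLE Gcnt2 and 9989 in HMLE LacZ. Of 8 growth factor binding proteins 1 was higher (IGFBP4, above) and 2 were lower, IGFBP6 by 3.25-fold and IGFBP2 by 2.0-fold.

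Of 17 genes of cholesterol synthesis 4 were lower and none was higher, with a median of -0.66 (log2). SQLE (squalene epoxidase) was 8.82-fold lower, with 1059 in MDA-MB231, 13744 in HMLE Gcnt2 and 9342 in HMLE LacZ. HMGCS1 (HMG-CoA synthase) was 4.07-fold lower, with 1253 in MDA-MB231, 5298 in HMLE Gcnt2 and 5095 in HMLE LacZ, and MSMO1 was 3.68-fold lower, although another MSMO1 probe did not differ (0.0 on the log2 scale). Of 24 genes of serine synthesis and ATF4 targets 6 were lower and none was higher: STC2 (stanniocalcin 2) was at least 3.79-fold lower, and PHGDH, the first enzyme of serine synthesis, was 2.31-fold lower, with 2122 in MDA-MB231, 4905 in HMLE Gcnt2 and 5628 in HMLE LacZ. Of 28 glycolysis and hypoxia genes 3 were lower and none was higher, each by less than 3-fold. Of 28 ribosomal protein genes 1 was higher (RPS23, 2.16-fold) and none was lower, with a median of 0.00 (log2).

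Positional identity genes were lower where they differed: 11 of 21 HOX and Iroquois genes were lower and none was higher, with a median of -1.07 (log2). IRX2 and IRX4, Iroquois homeobox factors that lie next to each other, were at least 16.5-fold and 13.96-fold lower: IRX2 read 109 in MDA-MB231, 2842 in HMLE Gcnt2 and 2320.3 in HMLE LacZ, and IRX4 read 127 in MDA-MB231, 2493 in HMLE Gcnt2 and 1968 in HMLE LacZ. HOXB2 was at least 6.18-fold lower and HOXC13 at least 6.11-fold. IRX5, which is named on the label of a SUM159 array, read 144 in MDA-MB231, 353 in HMLE Gcnt2 and 313 in HMLE LacZ, 2.17-fold lower. Its probe was not raised in the SUM159 array labelled IRX5, with 151 there, 163 in untransfected SUM159 and 165 in SUM159 LacZ.

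In the WNT list 3 of 24 genes were higher and 5 lower. FZD2, a frizzled receptor, was 3.75-fold higher, with 3476 in MDA-MB231, 397 in HMLE Gcnt2 and 928 in HMLE LacZ. The secreted inhibitors DKK3 and SFRP1 were lower, DKK3 by 16.8-fold with 213 in MDA-MB231, 3579 in HMLE Gcnt2 and 5601 in HMLE LacZ, and SFRP1 by at least 10.6-fold with 104 in MDA-MB231, 1588 in HMLE Gcnt2 and 1501 in HMLE LacZ. CTNNB1 (beta-catenin) was 2.39-fold lower. The ligand gene WNT7A read 114 in MDA-MB231, 706 in HMLE Gcnt2 and 521 in HMLE LacZ, and WNT5A read 102, 204 and 488 in that order. With the dimmer side at the limit, WNT5A was at least 1.45-fold lower. A second frizzled gene, FZD4, was higher, with 508 in MDA-MB231, 175 in HMLE Gcnt2 and 178 in HMLE LacZ. Of the 24 genes 16 did not reach 2-fold, so the list as a whole showed no common direction. In the TGF-beta and BMP list 3 of 21 were higher and 4 lower. The ligand BMP4 was 3.07-fold higher and its antagonist NOG (noggin) 3.67-fold, with 570.3 in MDA-MB231, 145 in HMLE Gcnt2 and 156 in HMLE LacZ. Another BMP4 probe differed by only 0.55 (log2). The ligand BMP2 was at least 3.15-fold lower. ID3 and ID1, transcription factors that BMP signalling induces, were 2.81-fold and 2.29-fold lower: ID3 read 1035 in MDA-MB231, 2912 in HMLE Gcnt2 and 4082 in HMLE LacZ. Another ID1 probe differed by only -0.67 (log2).

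Of 26 glycosyltransferases 4 were higher and 3 lower, with a median of 0.02 (log2). GCNT2, which builds branched I antigen chains, was at least 5.74-fold higher by the probe for transcript NM_001491, with 809 in MDA-MB231, 129 in HMLE Gcnt2 and 123 in HMLE LacZ. A second probe for that transcript read 121 in MDA-MB231, 122 in HMLE Gcnt2 and 113 in HMLE LacZ, all below the limit. The brighter probe is not the one that marks the construct of HMLE Gcnt2 (above). ST3GAL4, a sialyltransferase, was 2.71-fold higher, with 817 in MDA-MB231, 259 in HMLE Gcnt2 and 302 in HMLE LacZ. B4GALT4, a galactosyltransferase, was 3.93-fold lower, with 418 in MDA-MB231, 1751 in HMLE Gcnt2 and 1642 in HMLE LacZ.

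Genes of antigen presentation by class II molecules included 2 of 7 that were higher and none that was lower. CD74, the invariant chain, was 8.81-fold higher, with 1943 in MDA-MB231, 198 in HMLE Gcnt2 and 221 in HMLE LacZ, though its least changed probe differed by 0.49 (log2). HLA-DRA was at least 5.99-fold higher, with 845 in MDA-MB231, 117 in HMLE Gcnt2 and 108 in HMLE LacZ. Of 13 class I genes only TAP2, a peptide transporter, was higher (2.31-fold), with inconsistent probes, the other at -0.15 (log2). Of 29 interferon-stimulated genes 3 were higher and 3 lower. The median of this list was -0.34 against HMLE LacZ and 0.26 against HMLE Gcnt2 (log2), so its direction depends on which HMLE array is used. HERC5, an ISG15 ligase, was 4.06-fold higher, and IFI6 was 2.01-fold lower, with 1544 in MDA-MB231, 3104 in HMLE Gcnt2 and 6165 in HMLE LacZ.

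Markers of other cells were checked beside these immune and mesenchymal genes. The endothelial markers VWF and CDH5, the adipocyte markers ADIPOQ and PLIN1 and the melanocyte markers MLANA, TYR and PMEL were below the limit in MDA-MB231 and in both HMLE arrays. PECAM1, a marker of endothelium and leukocytes, was above the limit in each, at 196 in MDA-MB231, 203 in HMLE Gcnt2 and 189 in HMLE LacZ. FABP4, an adipocyte marker, was below the limit in MDA-MB231 at 123 and read 172 in HMLE Gcnt2 and 178 in HMLE LacZ. The leukocyte marker PTPRC was below the limit in MDA-MB231 at 120.1 and in HMLE LacZ at 136, and just above it in HMLE Gcnt2 at 146. The monocyte marker CD14 read 222 in MDA-MB231, 383 in HMLE Gcnt2 and 645 in HMLE LacZ. Of 8 leukocyte markers compared, 1 was lower (CSF1R, at least 2.04-fold) and none was higher. Of 5 endothelial markers ESAM, an adhesion molecule, was at least 9.52-fold higher, and of 4 adipocyte markers LPL (lipoprotein lipase) was at least 2.19-fold higher. Among 3 melanocytic and neural markers 1 was lower (ERBB3, given above), and of 3 cancer-testis antigens none reached 2-fold. In RNA of whole cultures, fewer cells that express a gene and less RNA per cell cannot be told apart.

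Intensities just inside and just outside the 2-fold rule were close. Inside it on the higher side, GLMP read 2050.0 in MDA-MB231 against 1025 in the nearer HMLE LacZ array and ROR1 read 581 against 290.4 in HMLE Gcnt2, and outside it KLHDC8B read 497 against 248 in HMLE LacZ and CTSH 2020.3 against 1013 in HMLE Gcnt2. Inside it on the lower side, MYO5B read 119 in MDA-MB231 against 238 in HMLE LacZ and WNT5A 102 against 204 in HMLE Gcnt2, and outside it ABLIM3 read 288 against 576 in HMLE Gcnt2 and ZHX2 298 against 596 in HMLE LacZ. Of the higher genes, 113 differed by at least 4-fold and 17 by at least 10-fold, with a median of 2.58-fold. Of the lower genes, 235 differed by at least 4-fold and 77 by at least 10-fold, with a median of 2.94-fold. MDA-MB231 was below the limit for 301 of the lower genes, and both HMLE arrays were below it for 120 of the higher genes. A further 720 genes lay 2-fold from only 1 HMLE array and were not counted.

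Values in the other untransfected lines were set beside the same HMLE arrays, which all these comparisons share. KRT5, KRT14 and KLK5 were below the limit in MDA-MB231, SUM1315 and SUM159. CDH1 read 106 in MDA-MB231, 175 in SUM1315 and 104 in SUM159. CDH2, by contrast, read 146 in MDA-MB231, 143 in SUM1315 and 7492 in SUM159, and TPM2 read 644 in MDA-MB231, 14075 in SUM1315 and 20649 in SUM159. MTAP was below the limit in all 3 lines at 101, 101 and 120.0 in that order, while KLHL9 was below it in MDA-MB231 and read 1366 in SUM1315 and 356 in SUM159. Among the genes highest in MDA-MB231, LIMCH1 read 5482 there, 186 in SUM1315 and 5221 in SUM159, and CALB2 read 5298 in MDA-MB231, 192 in SUM1315 and 103 in SUM159. Lines with the same basal-like label thus differed from each other by more than 10-fold at several of the genes that set MDA-MB231 apart from HMLE.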

How the data were processed

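The deposited value table holds probe intensity on a linear scale for 8 arrays, 1 per group. The authors made all arrays share nearly 1 distribution of intensities (ranked values vary by at most 1.27% between arrays, as quantile normalization gives). GenomeStudio, lumi 1.14 and R 2.11.1 are listed in the submitters' processing notes; how background was corrected is not stated there. An unnormalized table was not used, since 16 columns of it could not be tied to a sample. Of 24526 probes, 21834 have 1 gene symbol and 2692 are unnamed; 21813 symbols were updated by Entrez number through RefSeq, and 67 probes of XIST or Y-linked genes were left out.

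Each gene was read from the probe whose mean log2 intensity over the 8 arrays was highest (3188 of 16864 genes have more than 1 probe). The detection limit of 141 mirrors the intensities below their mode (109.52) above it, with a tail of 0.01. A gene was compared where MDA-MB231 or either HMLE array exceeded the limit, which left out 5255 genes. The difference is the signed log2 distance from the nearer HMLE array, and 0.0 where MDA-MB231 lay between them. Named genes were a fixed set, the 15 highest and the 15 lowest, at most 4 of each list's members on either side, cell markers, genes at the edge of the threshold and neighbours of CDKN2A; others are said to have been singled out later. The members and all 43 lists were chosen with earlier results of these data known. Calculations used Python 3.11.15, numpy 2.4.6, pandas 2.3.3, R 4.3.3 and limma 3.58.1, and were tested on simulated data. Alternatives were normexp background correction (offset 50), cyclic loess, median centring, dim values at the limit, other rules for probes and detection, each HMLE array alone, the array labelled Foxq1 required as well, and thresholds of 1.5-fold and 3-fold. Only the number of arrays sets the precision, and no interval can be given.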

Additional observations from a re-analysis of the deposited data

Results flagged for a closer look

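MMP1 and ID3 lay on the opposite side of HMLE in MDA-MB231 from where SUM1315 and SUM159 lay, at least 2-fold in each line. Only the 274 named genes and list members that differed were searched for this, not all 1352 genes that differed. MMP1 (interstitial collagenase) was higher in MDA-MB231 by 1.94 on the log2 scale, with 1394 there, 123 in SUM1315 and 128 in SUM159, against 309 in HMLE Gcnt2 and 363 in HMLE LacZ. ID3 (an inhibitor of DNA binding) differed by -1.49 (log2) in MDA-MB231, with 1035 there, 15557 in SUM1315 and 21556 in SUM159, against 2912 in HMLE Gcnt2 and 4082 in HMLE LacZ. The comparisons share the HMLE arrays, each line is 1 array, and the difference between lines was not tested.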

How the results depend on the processing

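The 593 higher and 759 lower genes were recounted under 13 alternatives. At 1.5-fold there were 1569 higher and 1373 lower, with 107 higher list members against 61, and at 3-fold 213 higher and 412 lower, with 32 higher list members. For SUM1315 the counts were 2141 higher and 1798 lower at 1.5-fold and 439 and 564 at 3-fold. For SUM159 they were 1302 and 1306 at 1.5-fold and 237 and 405 at 3-fold, and for HMLE Gcnt2 against HMLE LacZ 290 and 263 at 1.5-fold and 0 and 12 at 3-fold. Requiring the array labelled Foxq1 as well left 333 higher and 469 lower for MDA-MB231, 677 higher for SUM1315, and 284 higher and 467 lower for SUM159; fewer genes can pass a rule with a further array. The other alternatives kept each count within 1.5 times, with 708 and 856 under normexp and 527 and 833 under cyclic loess. With the detected probe nearest to 0, CDKN2A (0.06), ITGB4 (0.03), S100A13 (0.08) and TAP2 (-0.15, log2) changed direction; which probe reports the gene was not tested. Of the 1352 calls, 1280 remained with dim values at the limit, 1286 under cyclic loess, 1167 with that probe rule and 802 with the array labelled Foxq1. No paired analysis was possible because each group has 1 array. Signal over background limits the dim genes: 5255 genes had no level above the limit in the 3 arrays, and folds written as "at least" are bounds.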

Other observations

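MDA-MB231 stood at least 2-fold above all 7 other arrays at 128 of its 593 higher genes. It stood at least 2-fold below all of them at 70 of its 759 lower genes, out of 11609 genes compared. The other arrays are HMLE labelled LacZ, Gcnt2 or Foxq1, SUM159 untransfected or labelled LacZ or IRX5, and SUM1315, so some share a line. No matching count was made for the other lines. Genes named here were chosen after their values were seen. CPVL, a serine carboxypeptidase, read 1975 in MDA-MB231, 165 in HMLE Gcnt2 and 198 in HMLE LacZ, and TMEM71, a membrane protein, read 1245 in MDA-MB231, 128 in HMLE Gcnt2 and 115 in HMLE LacZ. Both were higher than in every other array of the study, cancer lines included. NETO2, an auxiliary subunit of kainate receptors, read 92.7 in MDA-MB231, 2199 in SUM1315 and 2458 in SUM159, and it read 2773 in HMLE Gcnt2 and 3333 in HMLE LacZ. FOXD1, a forkhead factor, read 106 in MDA-MB231, 1846 in SUM1315 and 1358 in SUM159, and it read 2476 in HMLE Gcnt2 and 2876 in HMLE LacZ. GJA1 (connexin 43, of gap junctions) read 233 in MDA-MB231, 2155 in SUM1315 and 1757 in SUM159, and it read 2029.9 in HMLE Gcnt2 and 1765 in HMLE LacZ. SNRPN, an imprinted splicing factor gene, read 117 in MDA-MB231, 2766 in SUM1315 and 1869 in SUM159, and it read 1048 in HMLE Gcnt2 and 1023 in HMLE LacZ. NETO2, FOXD1 and SNRPN were below the limit in MDA-MB231, and GJA1 was measured there at a low level.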
